A study of Mus musculus with 4 samples.

Results

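The common gamma chain cytokine receptors were described in mouse T cells grown under a Tc9 cytokine condition and under a Tc1 cytokine condition. The set was given as 8 genes, chosen by function as the receptor chains for IL-2, IL-4, IL-7, IL-9, IL-15 and IL-21: Il2ra, Il2rb, Il2rg, Il4ra, Il7r, Il9r, Il15ra and Il21r. The platform annotation named 1 probe set for each of 7 of them, out of 19505 genes measured. Il2rg, which encodes the shared chain itself, is not analysed here. RNA was hybridised to 4 Affymetrix arrays, 2 for Tc9 and 2 for Tc1, and each group's titles carry the numbers 1 and 2. The field uses Tc9 for interleukin 9-producing and Tc1 for interferon gamma-producing CD8 T cells. The strain, age, cytokines, doses, culture times and any sort are not given in the labels, and nothing says that the arrays of a group came from separate cultures or animals. The p-values then measure only the spread between these arrays, which may be technical.

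Each of these receptors binds a helical cytokine and signals through the common gamma chain, which carries the kinase JAK3, and a private chain, which carries JAK1. The IL-2 and IL-15 receptors share their beta chain, Il2rb, and differ in the alpha chains Il2ra and Il15ra, which bind their cytokine but carry no kinase. IL-2, IL-7, IL-9 and IL-15 act mainly through STAT5, IL-4 through STAT6 and IL-21 through STAT3. In CD8 T cells IL-2 drives division and effector function, IL-7 and IL-15 sustain naive and memory cells, and IL-15 is largely shown to T cells by Il15ra on a neighbouring cell.

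Of the 7 receptor genes, Il15ra stood apart, with a Tc9 signal more than 2-fold below that of Tc1 in both pairs of arrays that share a number. Il4ra was about 1.34-fold higher in Tc9 on average. For Il2ra, Il2rb, Il21r and Il7r the groups differed by about 1.17-fold or less, and Il9r gave a signal below background on all 4 arrays. By limma with Benjamini-Hochberg adjustment over all genes, 0 of the 7 passed an adjusted p of 0.05, against 0.564% of all genes (110 of 19505). At an unadjusted p under 0.05 there were 2 of the 7, Il15ra and Il4ra, against 5.28% of all genes. The groups did not overlap for 4 of the 7, against 29.1% of all genes. The median log2 change was 0.16 over the 7 and -0.003 over all genes, and 6 of the 7 changed by less than 0.5 on the log2 scale, as did 95.1% of all genes.

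The promoter windows of Il15ra and Il2ra are shown because these alpha chain genes lie next to each other among the protein-coding genes of chromosome 2, with log2 changes of -1.37 and -0.02. Sequences are from RefSeq on GRCm38.p6, each from 250 bases before a start of transcription to 50 after it, on the plus strand. The Il15ra windows are chr2:11705043-11705342 and chr2:11705462-11705761, at 2 start sites of the gene, and the Il2ra window is chr2:11642542-11642841. Capitals mark matches to GAAANNGAA, a form of the element bound by interferon regulatory factors, on either strand.
Il15ra, first start site: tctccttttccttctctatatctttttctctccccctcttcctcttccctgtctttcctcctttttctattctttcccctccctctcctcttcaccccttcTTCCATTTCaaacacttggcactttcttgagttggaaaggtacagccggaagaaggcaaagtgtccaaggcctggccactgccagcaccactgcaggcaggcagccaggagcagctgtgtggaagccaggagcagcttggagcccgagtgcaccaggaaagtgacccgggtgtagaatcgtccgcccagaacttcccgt
Il15ra, second start site: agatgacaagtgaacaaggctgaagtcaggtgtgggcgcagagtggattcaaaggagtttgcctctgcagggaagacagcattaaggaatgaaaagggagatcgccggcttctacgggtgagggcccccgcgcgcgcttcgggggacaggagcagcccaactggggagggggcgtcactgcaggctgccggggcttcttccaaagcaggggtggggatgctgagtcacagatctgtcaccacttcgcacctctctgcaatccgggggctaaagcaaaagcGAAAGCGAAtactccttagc
Il2ra: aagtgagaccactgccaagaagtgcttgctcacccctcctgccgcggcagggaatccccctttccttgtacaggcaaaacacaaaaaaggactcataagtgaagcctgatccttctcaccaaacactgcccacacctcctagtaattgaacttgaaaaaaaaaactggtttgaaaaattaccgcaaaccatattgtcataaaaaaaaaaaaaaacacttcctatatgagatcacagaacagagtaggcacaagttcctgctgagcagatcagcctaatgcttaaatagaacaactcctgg
The second Il15ra window holds the element as GAAAGCGAA at positions 31 to 39 after the start. The first holds it on the other strand, written TTCCATTTC on the plus strand, from 149 to 141 bases before the start. It occurred in 8.56% of all 32851 windows of this length, and this form was added to the search after the Il15ra windows had been read. The longer form with a further A at its end was in 0 of the receptor windows, against 3.44% of all windows.

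Of the 8 receptor genes, 7 had a window, 8 windows in all; Il2rb is named only. No receptor window other than those of Il15ra held GAAANNGAA. As this form was taken up after the Il15ra windows had been read, that does not set Il15ra apart. The STAT motif TTCNNNGAA, in 8.30% of all windows, was found once, in Il7r. The T-box motif AGGTGTGA, in 1.28% of all windows, was in none of the 8, and no Il2rb window was there to search. The FOXO motif GTAAACA, in 3.65%, was in Il21r. Each was searched on both strands. The matches describe letters in these windows and do not show binding.

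Il15ra encodes the high-affinity alpha chain of the IL-15 receptor. It measured 166 and 122 on the Tc9 arrays numbered 1 and 2, against 433 and 355 on the Tc1 arrays (quantile normalized intensity). Both Tc9 values lay below both Tc1 values. The means were 144 ± 31.7 in Tc9 and 394 ± 55.0 in Tc1 (SD, n = 2 each), a log2 change of -1.37 ± 0.22 (SE of the fit, Tc9 minus Tc1) with a 95% interval of -1.90 to -0.84. All log2 changes are of the intensity plus 16, which understates those of dim genes. The change missed the threshold (limma adjusted p = 0.0617), although 99.4% of all genes changed by less. It was -1.30 in the pair numbered 1 and -1.43 in the pair numbered 2, and -1.24 and -1.46 in the values as deposited, before quantile normalization.

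In Tc9 the Il15ra signal was near background. As deposited it was 122 and 156 on the Tc9 arrays, where the 95th percentile of 5222 negative control probe sets stood at 123 and 197. This percentile is the negative control level used below, and both Tc1 arrays lay above theirs. Set against the lowest signal above that level on each Tc9 array, the mean Il15ra signal was at least 2.32-fold lower in Tc9. That fold leaves out the spread between arrays, and the 95% interval of the log2 change, -1.90 to -0.84, reaches a smaller fall. In RNA from whole cultures, fewer cells that express a gene and less of its RNA per cell cannot be told apart. Il15ra is also made by myeloid cells, and all 6 myeloid markers measured lay below the negative control level on all 4 arrays. Their summed signal was 250 and 318 in Tc9 and 232 and 270 in Tc1. As sums of signals below background, these values do not measure myeloid content. The part of myeloid cells in the Il15ra values was not tested.

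**Figure D1:**
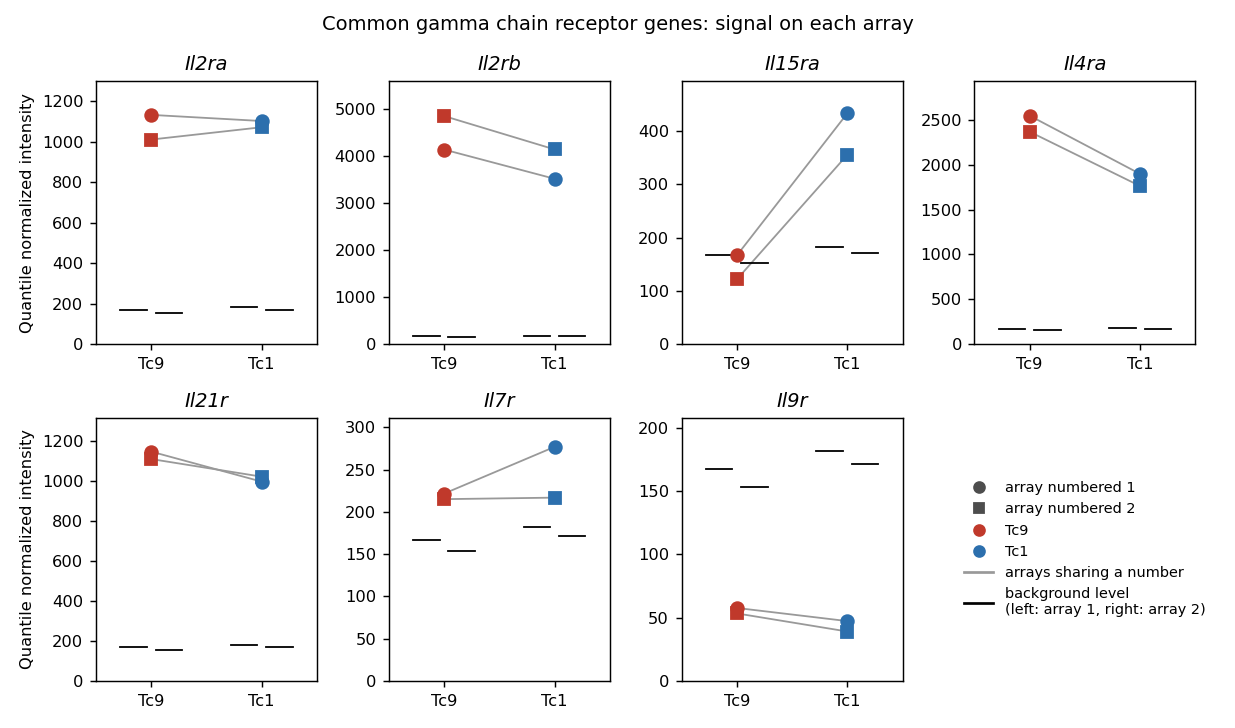
Quantile normalized intensity (vertical axis, linear, from 0) of the 7 receptor genes on each array, Tc9 on the left and Tc1 on the right, with lines joining arrays that share a number. Black ticks give, for each array, the lowest normalized signal among probe sets above the 95th percentile of the negative controls. Il15ra sits at 166 and 122 in Tc9 against 433 and 355 in Tc1, and Il9r lies under the ticks throughout.

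The arrays numbered 1 and 2 differed as deposited: over all probe sets, the pair numbered 1 had medians of 37.9 (Tc9) and 37.1 (Tc1), and the pair numbered 2 had 57.1 (Tc9) and 57.3 (Tc1). The values were written with a median of 10 digits on the first pair and 7 on the second. With the number as a block in limma, 3 of the 7 receptor genes passed, against 13.7% of all genes: Il15ra fell (adjusted p = 1.95e-26), and Il4ra (1.01e-11) and Il2rb (1.37e-05) rose. That fit has 1 residual degree of freedom and an infinite prior, so all genes of like intensity share 1 spread and these p-values are too small to be read as the spread of a single gene. Without the intensity trend the block gave adjusted p = 2.19e-05 for Il15ra and 0.0300 for Il4ra, and Il2rb did not pass (0.232).

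Each of the 4 arrays was also left out in turn. Those fits leave a lone array in a group, so only the size of the Il15ra change is read from them. A lone array in a group is assumed there to vary like the other group. The log2 change lay between -1.57 and -1.16 in these 4 fits.

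The beta chain that IL-15 shares with IL-2 did not show that difference. Il2rb, the signalling chain of both receptors, measured 4133 and 4844 on the Tc9 arrays, against 3512 and 4136 on the Tc1 arrays. The groups overlapped, because the Tc1 array numbered 2 lay just above the Tc9 array numbered 1. Within each number Tc9 was higher by 0.23 on the log2 scale. The log2 change was 0.23 ± 0.14 (limma adjusted p = 1.00), with a 95% interval for the Tc9 over Tc1 ratio of 0.940 to 1.46. The change was 0.11 without the Tc1 array numbered 1 and 0.12 without the Tc9 array numbered 2, and 0.35 and 0.34 without the Tc1 array numbered 2 and the Tc9 array numbered 1.

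Il2ra, the CD25 alpha chain that gives the IL-2 receptor its high affinity, measured 1133 and 1011 in Tc9, against 1102 and 1072 in Tc1. The groups overlapped, and the pairs went opposite ways, by 0.04 and -0.08. The log2 change was -0.02 ± 0.14 (limma adjusted p = 1.00), smaller in size than that of all but 11.7% of genes, and the 95% interval of the ratio ran from 0.789 to 1.23. A 2-fold difference in Il2ra would lie outside that interval. On chromosome 2 the Il2ra and Il15ra genes thus stood side by side with log2 changes of -0.02 and -1.37.

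Il4ra, the IL-4 receptor alpha chain, which also serves IL-13 in other cell types, measured 2545 and 2367 in Tc9, against 1896 and 1761 in Tc1. Both Tc9 arrays lay above both Tc1 arrays. The means were 2456 ± 126 in Tc9 and 1829 ± 95.3 in Tc1 (SD, n = 2 each). The log2 change was 0.42 ± 0.12, with 0.42 in each pair, a 95% interval of 0.14 to 0.71 and a limma adjusted p of 0.418. Of all genes 93.2% changed by less.

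Il21r, the IL-21 receptor chain, lies next to Il4ra among the protein-coding genes of chromosome 7. It measured 1146 and 1109 in Tc9, against 996 and 1021 in Tc1, and the groups did not overlap. The log2 change was 0.16 ± 0.13 (limma adjusted p = 1.00), with 0.20 within number 1 and 0.12 within number 2, and the 95% interval of the ratio was 0.904 to 1.38. A 2-fold difference in Il21r would lie outside it.

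Il7r, the CD127 chain that marks naive and memory T cells and is turned down on effector cells, measured 222 and 215 in Tc9, against 277 and 217 in Tc1. The Tc1 array numbered 1 was high and the other 3 lay close together, with the Tc1 array numbered 2 between the Tc9 arrays. The log2 change was -0.16 ± 0.20 (limma adjusted p = 1.00), -0.30 in the pair numbered 1 and -0.01 in the pair numbered 2, and without the Tc1 array numbered 1 it was 0.01. The 95% interval of the ratio, 0.642 to 1.25, was wider than that of Il2ra. Il7r was above the negative control level on all 4 arrays.

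Il9r, the IL-9 receptor chain, measured 57.6 and 53.3 in Tc9, against 47.2 and 39.0 in Tc1. Both Tc9 values were higher, but all 4 stayed under the negative control level, as did 60.2% of all genes, so no fold is given. Its log2 change of 0.28 ± 0.23 did not pass (limma adjusted p = 1.00).

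**Figure D2:**
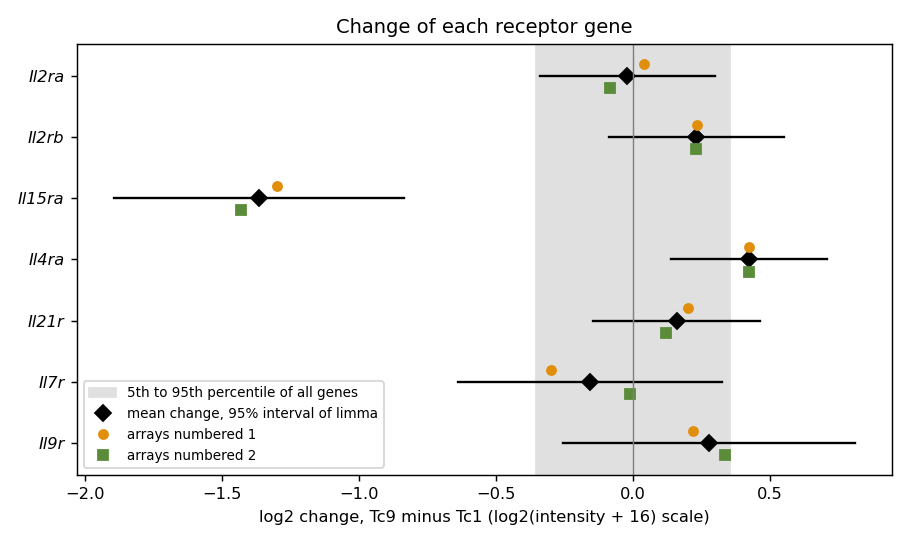
Log2 change, Tc9 minus Tc1, of each receptor gene (diamonds, with the 95% interval of the limma fit as bars) and of the pairs numbered 1 (circles) and 2 (squares). The grey band spans the 5th to the 95th percentile of all genes, -0.35 to 0.35; Il15ra at -1.37 and Il4ra at 0.42 lie outside it.

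**Figure D3:**
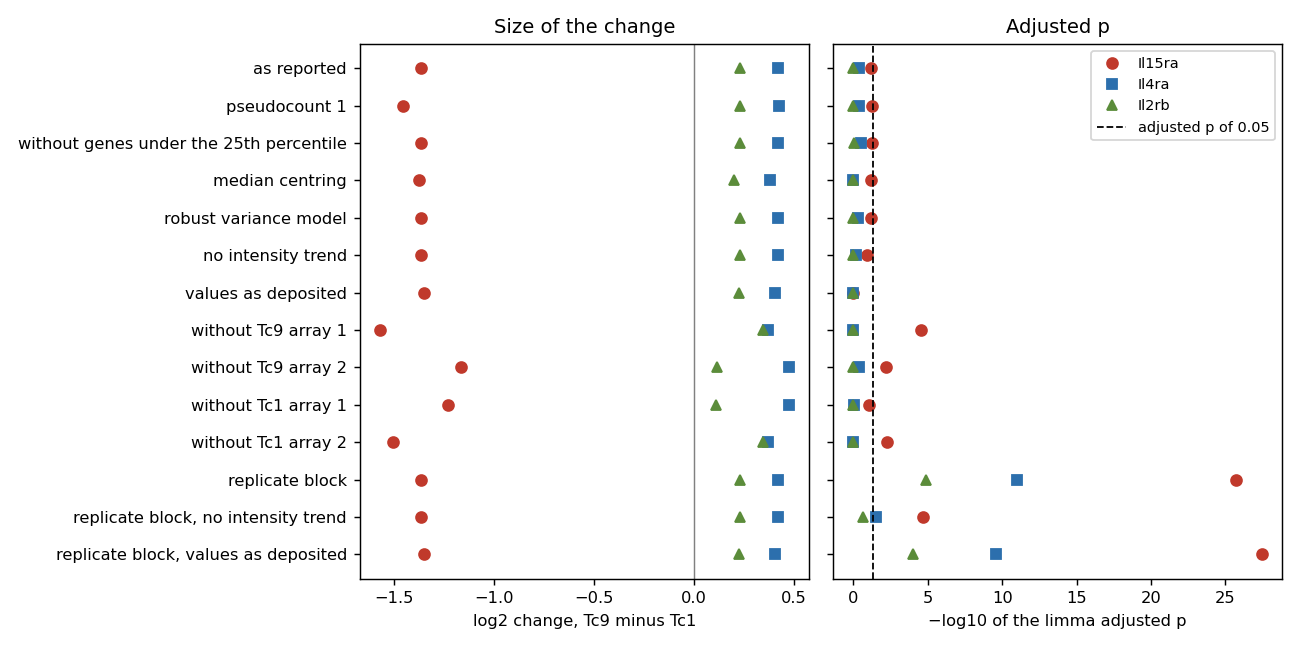
Log2 change (left) and negative log10 of the limma adjusted p (right) of Il15ra, Il4ra and Il2rb under each processing setting, with the threshold of 0.05 as a dashed line. The size of the Il15ra change stayed between -1.57 and -1.16, while its adjusted p ranged from 1.00 with the values as deposited to 3.41e-28 with the replicate block on those values. Fits without 1 array leave a lone array in a group, and their adjusted p is not read as a call.

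The 3 genes whose centred log2 values over the 4 arrays were closest to those of Il15ra were Tapbpl, a chaperone-like protein of MHC class I loading (Euclidean distance 0.16), Agpat4, an enzyme of phospholipid synthesis (0.20), and Gbp8, a guanylate-binding protein (0.23). Tapbpl measured 436 and 344 in Tc9, against 1191 and 847 in Tc1. The likeness rests on 4 arrays.

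The ligands were mostly not measurable in these cells. Of the 6 ligand genes, 0 passed limma, 2 had an unadjusted p under 0.05 (Il2 and Il9), where 0.564% and 5.28% of all genes did so, and 5 lay below the negative control level on all 4 arrays. Il2, the T cell growth factor, measured 116 and 95.6 in Tc9, against 211 and 199 in Tc1. Both Tc9 arrays were below the negative control level and both Tc1 arrays above it, so Il2 was at least 1.25-fold lower in Tc9, with a limma adjusted p of 0.302 (1.24e-07 with the number as a block) and means of 106 ± 14.6 and 205 ± 8.19 in Tc9 and Tc1 (SD, n = 2 each).

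Il9, the ligand of Il9r, measured 103 and 81.9 in Tc9, against 23.4 and 26.5 in Tc1, below the negative control level throughout. Its log2 change of 1.40 ± 0.24 did not pass (limma adjusted p = 0.0679, and 5.07e-15 with the number as a block). It passed with median centring (limma adjusted p = 0.0472) and the 25th percentile filter (0.0454). It missed with the values as deposited (0.762), a pseudocount of 1 (0.0545), the robust variance model (0.0596) and no intensity trend (0.0659). Il4 measured 10.7 and 10.7 in Tc9, against 14.2 and 15.2 in Tc1, also below that level. For Il7, Il15 and Il21 the signals lay between 8.49 and 16.2 in all, and a change could not be measured reliably. Neither Il9 nor Il9r was thus above background here, whereas the Il2 signal in Tc1 and Il2ra and Il2rb in both groups were.

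Among 5 genes that pair with a receptor outside the common gamma chain family, 0 passed limma and 0 had an unadjusted p under 0.05. The shares of all genes were 0.564% and 5.28%. Of the 5 genes, 4 lay below the negative control level on all 4 arrays. Crlf2, which joins Il7r to form the receptor of the cytokine TSLP, was the exception. It measured 424 and 410 in Tc9, against 341 and 343 in Tc1, with a log2 change of 0.28 ± 0.16 (adjusted p = 1.00). Il13ra1, the chain that joins Il4ra to bind IL-13, measured 42.4 and 21.4 in Tc9, against 41.1 and 18.4 in Tc1, with a log2 change of 0.08, and Il13 measured 104 and 74.8 in Tc9, against 103 and 72.6 in Tc1.

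The STAT5 genes were the largest differences among the kinases and STAT factors downstream. Of the list, 7 genes were measured, and Jak3 is not analysed here. By limma 0 of the 7 passed and 2 had an unadjusted p under 0.05 (5.28% of all genes), and 6 of 7 had a positive log2 change, with a median of 0.31 against -0.003 over all genes. Stat5a measured 4023 and 3220 in Tc9, against 2035 and 1698 in Tc1, a log2 change of 0.95 ± 0.16 (limma adjusted p = 0.0617), with 0.98 within number 1 and 0.92 within number 2. Stat5b measured 1087 and 1172 in Tc9, against 629 and 573 in Tc1, a log2 change of 0.89 ± 0.14 (adjusted p = 0.0572), with 0.78 within number 1 and 1.01 within number 2.

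In both genes the groups did not overlap. With the number as a block 4 of the 7 rose, against 13.7% of all genes passing, among them Stat5a (adjusted p = 2.03e-66) and Stat5b (2.27e-27). With the block and no intensity trend the adjusted p was 0.000256 for Stat5a and 0.000578 for Stat5b. Their sequences are very similar, and sharing of signal between the probe sets was not examined. Jak1, the kinase of the private chains, measured 1158 and 580 in Tc9, against 820 and 493 in Tc1, so the groups overlapped (adjusted p = 1.00). Stat6, the factor of IL-4 signalling and named outside the rule after its values were seen, had a log2 change of 0.05 ± 0.14.

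Of the 10 inhibitors of cytokine signalling, 1 rose, where 0.385% of all genes rose, and 9 did not pass. Socs2, a feedback inhibitor induced by STAT5, measured 1356 and 934 in Tc9, against 342 and 287 in Tc1, a log2 change of 1.79 ± 0.21 (limma adjusted p = 0.0167), with 1.94 within number 1 and 1.65 within number 2. Its call was lost with the values as deposited (adjusted p = 1.00) and without the intensity trend (0.0767). Cish, another STAT5 feedback gene, measured 1664 and 2220 in Tc9, against 1202 and 1533 in Tc1, a log2 change of 0.50 ± 0.19 that did not pass (0.776). For Socs1, which binds and blocks JAK kinases, the log2 change was 0.39 ± 0.20 (adjusted p = 1.00) and the groups overlapped. Leaving out 1 array moved these changes to between 0.29 (without the Tc9 array numbered 2) and 0.70 (without the Tc9 array numbered 1) for Cish, and between 0.16 (without the Tc9 array numbered 1) and 0.63 (without the Tc9 array numbered 2) for Socs1. Cish was also at 0.32 without the Tc1 array numbered 1, and Socs1 at 0.22 without the Tc1 array numbered 2. With the number as a block 3 of the 10 rose and 1 fell, where 13.7% of all genes passed.

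The 15 survival and growth targets of IL-2, IL-7 and STAT5 went both ways. By limma 0 passed, 6 had an unadjusted p under 0.05 (5.28% of all genes), 7 had a positive log2 change, and the median was -0.16. With the number as a block 3 rose and 7 fell, where 13.7% of all genes passed. Pim2, a survival kinase, measured 4454 and 3618 in Tc9, against 6956 and 5720 in Tc1, a log2 change of -0.65 ± 0.15 (adjusted p = 0.216). Lta, the cytokine lymphotoxin alpha, had a log2 change of -0.49 ± 0.12 (0.270). Tnfrsf8, the CD30 receptor, had the largest in size at -0.78 but lay below the negative control level on all 4 arrays.

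Bcl2, the survival protein that IL-7 sustains, measured 3011 and 3316 in Tc9, against 2181 and 2719 in Tc1, 0.37 ± 0.14 higher in Tc9 on the log2 scale (adjusted p = 0.804). Pim1, a kinase related to Pim2, measured 2348 and 2269 in Tc9, against 3087 and 3062 in Tc1 (log2 change -0.41 ± 0.11, adjusted p = 0.353). Both genes were named after their values were seen. In each of these, and in Pim2, the groups did not overlap.

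Of 12 transcription factors with a known part in the control of receptor genes or T cell state, 2 fell and 1 rose. Of all genes, 0.179% fell and 0.385% rose. Eomes and Tbx21, which encode T-box factors known to activate Il2rb in mouse lymphocytes, fell by 1.98 and 1.83 on the log2 scale (limma adjusted p = 0.00381 and 0.0167), beside the Il2rb change of 0.23. On 1 of the 2 Tc9 arrays Tbx21 was below the negative control level, so the size of its fall is uncertain. With the number as a block 6 of the 12 rose and 3 fell, where 13.7% of all genes passed. Runx1, a factor of T cell development, measured 445 and 477 in Tc9, against 152 and 195 in Tc1, a rise of 1.34 ± 0.20 (adjusted p = 0.0428). Its call was lost with the values as deposited (1.00), with median centring (0.186) and without the intensity trend (0.0767), and 1 of its 2 Tc1 signals was below the negative control level. The calls of Eomes and Tbx21 were lost with the values as deposited (1.00 for both), and that of Tbx21 also without the intensity trend (0.0602).

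Foxo1, the factor known to activate Il7r in T cells and named after its values were seen, measured 922 and 1102 in Tc9, against 409 and 503 in Tc1, a log2 change of 1.12 ± 0.17 (limma adjusted p = 0.0525). Klf2, a factor of T cell quiescence, measured 334 and 276 in Tc9, against 100 and 112 in Tc1. Both Tc1 signals of Klf2 were below the negative control level, so it was at least 1.66-fold higher in Tc9 (adjusted p = 0.0509). Klf2 passed with a pseudocount of 1 (limma adjusted p = 0.0408), the 25th percentile filter (0.0427) and the robust variance model (0.0465). It missed with the values as deposited, median centring (0.0668) and no intensity trend (0.0654). Of these settings, Foxo1 passed only with the pseudocount of 1 (0.0487). Beside the Foxo1 and Klf2 changes, that of Il7r was -0.16.

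Of 5 genes of receptor endocytosis and shedding, 4 were measured and March8 is not analysed here. By limma 0 passed and 0 had an unadjusted p under 0.05, where 0.564% and 5.28% of all genes did so. Adam10, a membrane protease, measured 1237 and 1441 in Tc9, against 1082 and 1139 in Tc1, with a log2 change of 0.26 ± 0.14. Snx27, a sorting protein of endosomes, had 0.22 ± 0.22, and Rnf128, a ubiquitin ligase, lay below the negative control level on all 4 arrays with 0.14.

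**Figure D4:**
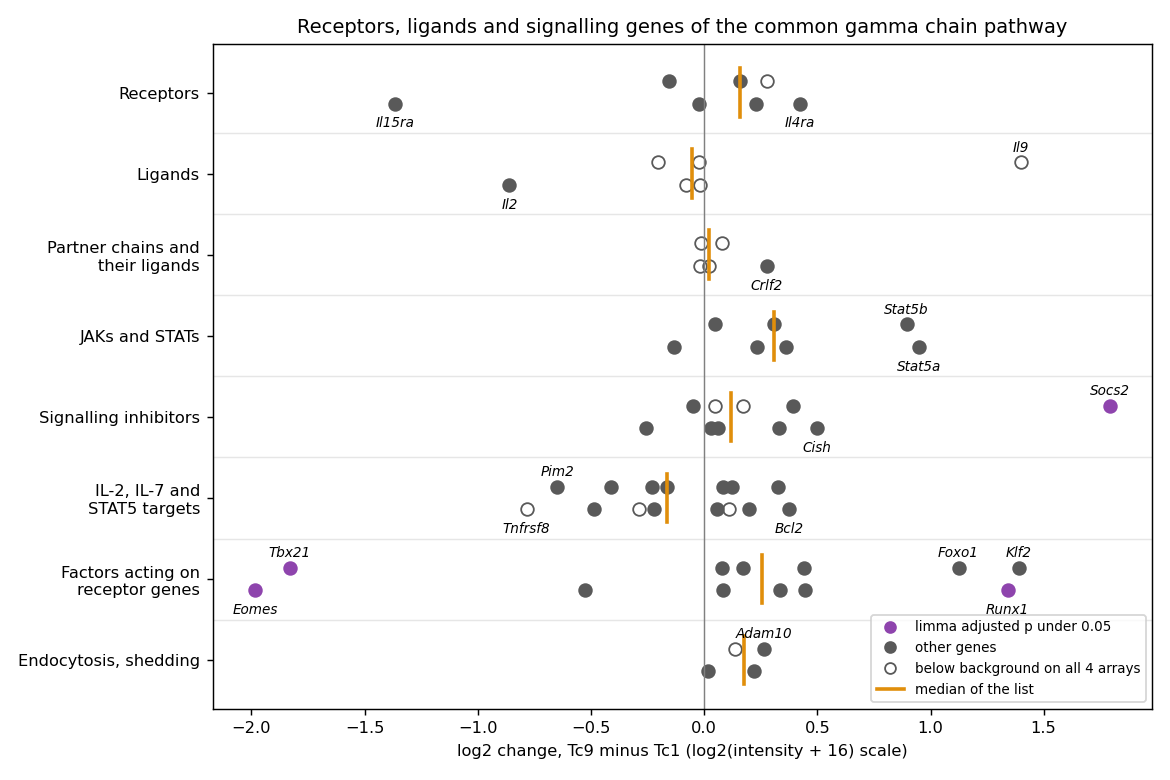
Log2 change, Tc9 minus Tc1, of every measured gene of the receptor set and of the pathway lists, with 1 row per list and the list median as an orange line. Purple points (Socs2, Eomes, Tbx21 and Runx1) passed the limma adjusted p of 0.05, and open circles stayed under the negative control level on every array.

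The reading of Tc9 and Tc1 as CD8 T cells was checked against markers. Cd8a measured 5272 and 4178 in Tc9, against 5305 and 4603 in Tc1. Cd8b1 measured 2447 and 3007 in Tc9, against 2870 and 3724 in Tc1. Of 6 T cell markers measured, 0 passed limma and 1 had an unadjusted p under 0.05, against 0.564% and 5.28% of all genes. It was Cd3d, with a log2 change of 0.54 ± 0.13 (limma adjusted p = 0.229). The log2 changes of Cd3e, Cd3g and Cd247 were 0.16, 0.26 and 0.05, and those of Cd2 and Cd5 were -0.30 and -0.22. Cd4 lay below the negative control level on all 4 arrays at 38.4 and 41.0 in Tc9 and 43.2 and 52.9 in Tc1. All markers of NK cells (3 measured) and of mast cells and basophils (6) were below that level on all 4 arrays, as were 4 of 5 B cell markers. The exception was Cd79b, which was above it on 1 Tc9 array. Of regulatory T cells, which carry much Il2ra, 4 markers were measured, and Foxp3 is not analysed here. By limma 0 of the 4 passed and 2 had an unadjusted p under 0.05 (5.28% of all genes). Lrrc32, a docking receptor for latent TGF-beta, measured 175 and 287 in Tc9, against 69.9 and 74.7 in Tc1. Both Tc1 signals were below the negative control level, so Lrrc32 was at least 1.25-fold higher in Tc9 (adjusted p = 0.125). Ctla4, an inhibitory receptor, measured 197 and 268 in Tc9, against 303 and 376 in Tc1 (adjusted p = 0.941). Tnfrsf18, the GITR receptor, was bright in both groups, at 1957 and 1483 in Tc9 and 2072 and 1892 in Tc1, and Ikzf2 was below the negative control level on all 4 arrays. The summed signal of the 4 was 2493 and 2165 in Tc9, against 2592 and 2470 in Tc1, and its part in the Il2ra values was not tested.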

How the data were processed

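The authors deposited 1 intensity per probe set and array for 28846 probe sets. Neither the labels nor the table state the background correction, software or genome build, and the range of the values showed a linear scale. Per the labels, RNA was taken with Trizol and labelled with biotin. Groups and numbers came from the sample titles. After 6640 controls were left out, the other 22206 probe sets went through quantile normalization, and log2 was taken of the result plus 16. A gene with several named probe sets (55 genes) was represented by the one with the highest mean. Tc9 was tested against Tc1 in limma 3.58.1 (R 4.3.3) by lmFit and a trended eBayes, with 2 residual and 5.09 prior degrees of freedom and Benjamini-Hochberg adjustment over 19505 genes. The script was tested on simulated data. The number of arrays limits the precision. A signal was called below background where the deposited intensity was under the 95th percentile of the 5222 negative control probe sets of that array. An "at least" fold starts from the brighter group's mean log2 value. On each dim array it sets against this the higher of the gene's own signal and the lowest normalized signal above that percentile. It does not include the spread between arrays.

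The receptor genes and pathway lists were chosen with earlier results of these data known. Named genes are the receptor genes, each list's 3 largest changes and members past the threshold, the 3 genes closest to the receptor gene with the largest change, and markers; others are named as chosen after their values were seen. Alternatives were the values as deposited, median centring, a pseudocount of 1, a filter at the 25th percentile, no intensity trend, a robust variance model, the replicate number as a block, each array left out, and the mean of all probe sets of a gene. The block with the values as deposited or with no trend was added after seeing the data.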

Additional observations from a re-analysis of the deposited data

How the results depend on the processing

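With 2 arrays per group, calls near the threshold turned on the spread assumed. Of all genes, 110 passed (75 higher and 35 lower in Tc9). There were 16 with the values as deposited (13 and 3), 56 without the intensity trend, 2674 with the replicate block, 1426 with the block and no trend, 2813 with the block on the values as deposited, and between 186 and 274 without any 1 array. Of the 7 receptor genes, 0 passed. With the block 3 did, with the block and no trend 2, and with the block on the values as deposited 3. The share of all genes that passed was 0.564% in the fit reported above and 13.7% with the block. Of the pathway genes (6, 5, 7, 10, 15, 12 and 4 measured in the lists, in the order described above), 4 passed. There were 0 with the values as deposited, 1 without the trend, 30 with the block, 18 with the block and no trend, 31 with the block on the values as deposited, and between 8 and 10 without any 1 array. As the groups share only numbers in their titles, the pairing is a hint from the data: the difference of number 1 minus number 2 in Tc9 correlated with that in Tc1 with r = 0.729 over genes.

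Directions turned only when 1 array was left out: the log2 change ranged from -0.32 to 0.0089 for Il7r, -0.10 to 0.059 for Il2ra, -0.19 to 0.23 for Il13, -0.29 to 0.44 for Il13ra1, -0.13 to 0.85 for Jak1, -0.026 to 0.47 for Snx27 and -0.085 to 0.18 for Stat6. The cause was not tested. The Il15ra, Il4ra and Il2rb directions held in every fit run. Signals below the negative controls limit what can be said of Il9r, the ligands and the Tc9 level of Il15ra.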
